A study of Mus musculus with 6 samples.

Results

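The hippocampal long noncoding RNAs (lncRNAs) described here are 120 probes of a mouse lncRNA array, of 90752 different probes in all. They are every probe that the study's list of changed transcripts classed as lncRNA. The study chose that list on the difference between db/db-DMDD and db/db-vehicle hippocampi on these same 6 arrays, so that difference is given below as a description of the chosen probes and not as a test of them. Among the 120 probes, 90 were listed under an identifier of the NONCODE database of noncoding RNAs, 17 under an Ensembl identifier, 7 under a gene symbol and 6 under no name. They covered 111 different names, of which 3 (D630024D03Rik, NONMMUG000638 and NONMMUG028818) had 2 probes each.

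The arrays measured hippocampi of male db/db mice aged 14 weeks, 1 array per mouse. All 6 mice were db/db, that is, homozygous for a mutation of the leptin receptor that leads to obesity and type 2 diabetes, and no db/m array was analysed here. The 3 db/db-vehicle mice received the Tween vehicle by gavage, and the 3 db/db-DMDD mice received DMDD, a quinone purified from the roots of Averrhoa carambola, at 50 mg/kg per day for 28 days. The study asked which transcripts differ in the hippocampus after DMDD treatment. Total RNA was amplified, labelled with the dye Cy3 and hybridised, and each value below is a log2 signal after quantile normalization between the 6 arrays.

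LncRNAs are transcripts that encode no recognised protein. Some act on neighbouring genes on the same chromosome (in cis), others on distant genes (in trans), and some are only host or precursor transcripts of small RNAs. A primary microRNA transcript folds into a hairpin, from which a short mature microRNA is cut, and the mature strand recognises its targets mainly through its seed, bases 2 to 8. Brain lncRNAs are in general less abundant than mRNAs, and most have no known function.

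MicroRNA genes made up 3 of the listed symbols, and their probes were found to be stretches of microRNA hairpins. In the RefSeq sequences of GRCm38.p6, the whole of each 60-base probe matched 1 hairpin on the same strand and ended at the 3′ end of the hairpin. The hairpins are shown first because they define what these probes can read, with the bases under the probe in capitals.
Mir3552: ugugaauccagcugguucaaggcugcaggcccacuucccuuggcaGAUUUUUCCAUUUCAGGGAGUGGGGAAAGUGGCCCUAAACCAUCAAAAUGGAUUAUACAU
Mir5110: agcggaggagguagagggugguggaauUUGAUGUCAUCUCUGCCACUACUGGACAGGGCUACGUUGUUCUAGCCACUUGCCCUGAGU
Mir6379: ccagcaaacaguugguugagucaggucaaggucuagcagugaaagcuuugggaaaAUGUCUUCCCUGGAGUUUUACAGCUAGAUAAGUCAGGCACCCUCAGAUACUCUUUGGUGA
The Mir3552 hairpin, whose RefSeq symbol is Gm22650, spans chrX:146999405-146999509 on the plus strand and lies within Htr2c, the gene of the serotonin 2C receptor. The Mir5110 hairpin spans chr11:85760616-85760702 on the minus strand, within Bcas3. The Mir6379 hairpin spans chr3:46900668-46900782 on the minus strand and lies between the protein-coding genes Pabpc4l and Pcdh18.

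The mature microRNAs are shown next, with the seed in capitals, because only 1 of them lies under its probe.
mmu-miR-3552: aGGCUGCAggcccacuucccu
mmu-miR-5110: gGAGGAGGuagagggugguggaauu
mmu-miR-6379: uCCCUGGAguuuuacagcuaga
The 3 seeds differ. All 22 bases of mmu-miR-6379 lay under the Mir6379 probe, whereas the Mir5110 probe held 1 of the 25 bases of mmu-miR-5110 and the Mir3552 probe held 0 of the 21 bases of mmu-miR-3552. Probes of this length read hairpin precursors and longer transcripts across the locus, such as a host gene transcript on the same strand, and the arrays do not separate these.

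The other listed symbols were D630024D03Rik on chromosome 11, 4631405J19Rik on chromosome 2 and Gm2447 on chromosome 3, all classed as lncRNA genes in RefSeq. D630024D03Rik lies between the protein-coding genes Bod1 and Cpeb4, 4631405J19Rik lies within Prdm11, and Gm2447 lies between Foxo1, a transcription factor of insulin signalling, and Cog6. A further probe, NONMMUG005749, singled out because it was the only member probe found whole in a RefSeq promoter window, matched chr11:34514507-34514566 on the plus strand of GRCm38.p6. Its first base lay 27 bases before the start site of the lncRNA gene Gm39681, within Dock2, and 33 of its bases lay from the start site onwards. The positions of the other lncRNA probes are given as unknown in the array files.

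The groups named on the arrays did not describe how the lncRNA probes varied. For 120 of 120 probes, the array labelled db/db-vehicle 3 was on the side of db/db-DMDD 2 and 3, while db/db-DMDD 1 was on the side of db/db-vehicle 1 and 2, with no overlap between these sides. In 59 probes db/db-vehicle 3, db/db-DMDD 2 and db/db-DMDD 3 were all above the other 3 arrays, and in 61 they were all below. Over all 67732 tested probes, which were well above background on at least 3 arrays, 9.32% showed this arrangement in either direction. The labelled groups did not overlap in 0 of the 120 lncRNA probes and in 7.07% of the tested probes. The list was itself chosen on these arrays, so these counts are no independent evidence about DMDD. The array values alone do not show whether the label or the side of an array follows the mouse, so all differences below use the labels as given. The difference of each single probe is given with all arrays only. The count past the study's thresholds, the overlap of the groups and the median absolute difference are also given without db/db-vehicle 3 and db/db-DMDD 1.

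**Figure D1:**
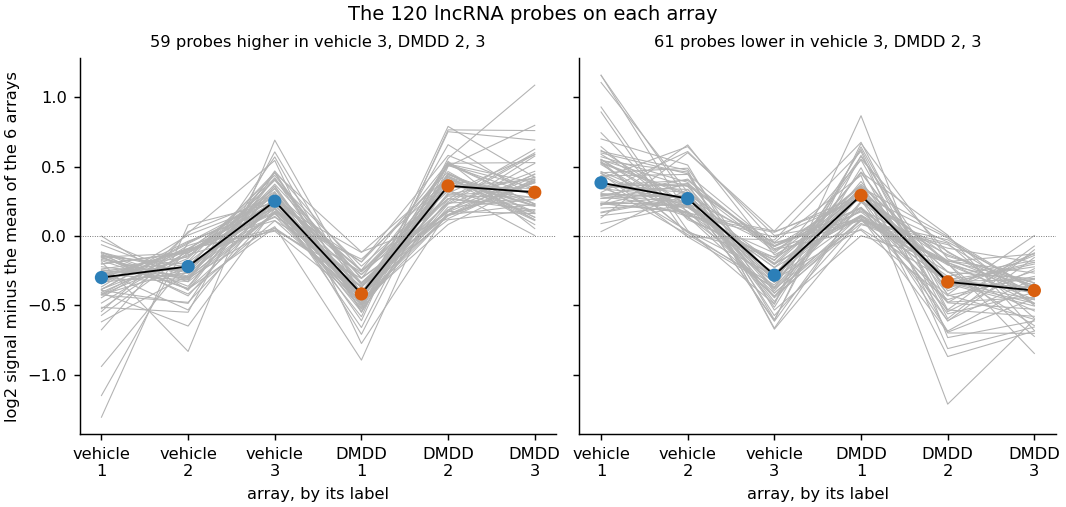
Log2 signal of each of the 120 lncRNA probes minus its mean over the 6 arrays (vertical axis) on each array by its label (horizontal axis); grey lines are probes and dots the median over the probes of the panel, blue for db/db-vehicle and orange for db/db-DMDD. In 59 probes (left) db/db-vehicle 3 and db/db-DMDD 2 and 3 lie above the other arrays, and in 61 probes (right) they lie below.

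The gap between these sides was small for most probes. It had a median of 0.28 on the log2 scale, with a range of 0.01 to 0.87, and it exceeded 0.5 in 9 probes. After each probe was centred on its mean, the pairs among db/db-vehicle 1, db/db-vehicle 2 and db/db-DMDD 1 had Pearson correlations of 0.622 to 0.792 over the 120 probes and the pairs among db/db-vehicle 3, db/db-DMDD 2 and db/db-DMDD 3 at 0.647 to 0.782. Pairs across these sides correlated at -0.864 to -0.706. All 120 probes have the arrangement, which largely fixes the signs of these correlations in advance. Over all tested probes the same pairs correlated at -0.411 to 0.121 and -0.494 to -0.003 within the sides, and at -0.580 to 0.189 across them. Centring on 6 arrays pulls such correlations below 0, and probes are not independent replicates.

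Slide 1 held the 3 db/db-vehicle arrays with db/db-DMDD 1, and slide 2 held db/db-DMDD 2 and 3. The arrangement therefore crossed the slides, because db/db-vehicle 3 shared a slide with the arrays it differed from. Per array, 113 to 119 of the 120 lncRNA probes and 65405 to 71323 of all probes were well above background, and 0 to 22 spots were marked as outliers. Of the 6 blood cell markers sought, the list names 4 as mRNAs chosen on the same arrays (Elane, Retnlg and Mmp8 of neutrophils and Cd3g of T cells), and all 4 were lower on db/db-vehicle 3 and db/db-DMDD 2 and 3 than on the other 3 arrays. Their summed linear signal was 337, 321 and 226 on the db/db-vehicle arrays and 327, 162 and 162 on the db/db-DMDD arrays. Most of each sum came from Retnlg, at log2 signals of 7.96, 8.02 and 7.46 against 7.90, 6.84 and 6.91. Because the 4 were chosen on these arrays, their shared side is no independent evidence of blood content. None of the 4 was at background, and their part in the lncRNA values was not tested. Probes for haemoglobin and for hippocampal neurons carry no name in the files, so the tissue label was not checked.

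The lncRNA probes were dim. Their mean log2 signal had a median of 4.92, with quartiles of 4.16 and 6.42, against a median of 7.13 over all tested probes. Of the 120 probes, 99 lay below the median of the tested probes and 62 below the lower quartile, and 14 had a mean above 8. Well above background on all 6 arrays were 108 probes, and 4, 6 and 2 probes were so on 5, 4 and 3 arrays. No lncRNA probe was below background on every array of a labelled group. The GC content of the probes, with a median of 40% against 41.7% over all tested probes, was close to that of the array.

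**Figure D2:**
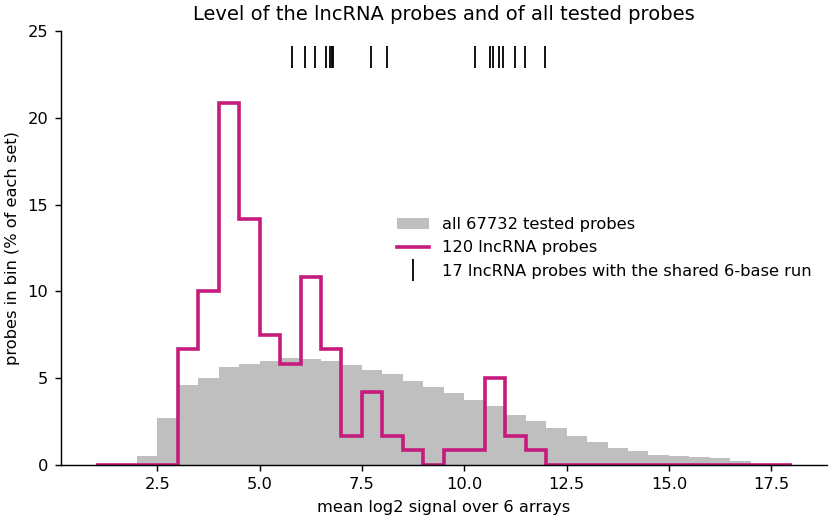
Share of probes (vertical axis, percent of each set) by mean log2 signal over the 6 arrays (horizontal axis), for all 67732 tested probes (grey) and the 120 lncRNA probes (line); each tick marks 1 of the 17 lncRNA probes that hold the shared run of 6 bases. The lncRNA probes have a median of 4.92 against 7.13, and the ticks lie between 5.79 and 11.98.

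The brightest lncRNA probes shared a short sequence. Every run of 6, 7 and 8 bases was counted in the probes on each side of the arrangement and set against its share over all tested probes, on the strand of the probe. In the 61 probes that were lower on db/db-vehicle 3 and db/db-DMDD 2 and 3, the run with the largest excess was CTTCCC, which 16 of them held (26.2%) against 2.24% of all tested probes. The 7-base and 8-base runs with the largest excess overlap it. GTCTTCC was held by 11 of the 61 and by 0.549% of all tested probes. TGTCTTCC was held by 9 of them (14.8% against 0.276%). In the 59 probes that were higher on those arrays, CTTCCC was held by 1, and the leading run, GAAATG, was held by 8 (13.6% against 3.05%). These runs were picked after the lists were seen, and their shares are descriptions.

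The probes below are the 3 brightest, all of which hold CTTCCC, and the 3 with CTTCCC that have a gene symbol or a predicted target, with whichever of these 3 overlapping runs they hold in capitals.
NONMMUG032692: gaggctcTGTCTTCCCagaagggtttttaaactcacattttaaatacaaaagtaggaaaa
NONMMUG007140: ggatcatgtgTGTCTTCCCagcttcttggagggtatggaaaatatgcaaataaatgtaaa
NONMMUG000333: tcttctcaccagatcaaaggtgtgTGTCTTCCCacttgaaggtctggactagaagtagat
Mir6379: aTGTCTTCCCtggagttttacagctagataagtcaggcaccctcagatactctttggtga
NONMMUG007351: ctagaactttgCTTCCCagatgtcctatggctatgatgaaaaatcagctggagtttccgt
NONMMUG015277: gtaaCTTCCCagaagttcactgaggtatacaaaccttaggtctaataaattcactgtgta
No probe of the array has the same whole sequence as another. NONMMUG032692 read 12.41, 12.15 and 11.71 on the db/db-vehicle arrays and 12.18, 11.67 and 11.76 on the db/db-DMDD arrays, and was the brightest lncRNA probe. NONMMUG007140 read 12.01, 11.79 and 11.01 against 11.83, 11.13 and 11.11. NONMMUG000333 read 11.87, 11.47 and 10.80 against 11.37, 11.07 and 10.91. In all 3 the labelled groups overlapped, and the db/db-DMDD mean was lower by less than the standard error or close to it (differences of -0.22 ± 0.22, -0.24 ± 0.31 and -0.26 ± 0.28, SE, n = 3 per group).

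The signals of different probes also depend on how well each probe binds, so they are no measure of the amounts of the RNAs. The 16 probes on the lower side that hold CTTCCC had a median log2 signal of 9.20, the other 45 on that side one of 4.72, and 9 of the 14 lncRNA probes with a mean above 8 held the run. The run started within the first 27 of the 55 possible positions of the probe in 15 of the 16, against 53.8% of the 1493 tested probes outside the list that hold it. Db/db-vehicle 1 was the highest of the 6 arrays in 15 of the 16, and in 18 of the 45 without the run.

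The share of probes with the lower arrangement was also larger with this run among probes that the study did not list. Of the 1493 tested probes outside the list that hold CTTCCC, 154 (10.3%) had db/db-vehicle 3 and db/db-DMDD 2 and 3 all below the other 3 arrays and 35 (2.34%) had them all above. For the 66084 tested probes outside the list without the run, the shares were 4.19% and 4.85%. With the run starting at bases 1 to 27 the share lower on those arrays was 13.4% (108 of 803 probes), and at bases 28 to 55 it was 6.67% (46 of 690 probes). The reverse complement, GGGAAG, showed no such excess: 3.76% of 1116 unlisted probes were lower and 4.57% were higher. The run GAAATG of the other side showed none either, with 3.60% of 2058 unlisted probes lower and 4.23% higher. As a set, the 1493 probes did not follow the arrangement. Their median centred values were 0.076, 0.015 and -0.019 on the db/db-vehicle arrays and -0.012, -0.022 and -0.031 on the db/db-DMDD arrays. Db/db-DMDD 1 was thus with the other db/db-DMDD arrays, and db/db-vehicle 1 stood highest. As labelled, 947 of the 1493 were lower in db/db-DMDD, against 33166 of the 66084 without the run. The median signal of unlisted probes was 7.36 with CTTCCC and 7.13 without it. These probes share arrays and RNA, and what RNA the shared run binds was not tested.

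Predicted target genes are listed for 7 of the 120 lncRNA probes, 6 of them with cis targets and 2 with trans targets. The study predicted targets only for its candidate lncRNAs, which it chose by a stricter fold change threshold. Most of the 120 probes were therefore not searched, and their lack of a listed target is no result. The predicted cis genes are Htr2c for Mir3552, Ccdc158 and Shroom3 (an actin-binding regulator of cell shape) for NONMMUG032990, Mid1 (a ubiquitin ligase bound to microtubules) for NONMMUG046368, Kctd3 for NONMMUG002771, Col1a1 (a chain of type I collagen) for NONMMUG007351, and Cntn1 (contactin 1, an adhesion molecule of neurons) for NONMMUG015277. The trans genes are Ermap, Itga4, Me3, Plekha8, Uba1y and Zfp300 for NONMMUG046368, and Six4 for NONMMUG026773. The array files pair no probe with these 14 genes, so their levels are not analysed here. The 5 probes of this set that were higher on db/db-vehicle 3 and db/db-DMDD 2 and 3 are given here, because they carry most of the predicted targets. None of the 5 holds CTTCCC.
Mir3552: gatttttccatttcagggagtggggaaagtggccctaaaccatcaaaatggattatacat
NONMMUG046368: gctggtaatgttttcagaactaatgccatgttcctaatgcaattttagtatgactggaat
NONMMUG026773: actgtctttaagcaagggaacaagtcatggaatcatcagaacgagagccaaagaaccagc
NONMMUG032990: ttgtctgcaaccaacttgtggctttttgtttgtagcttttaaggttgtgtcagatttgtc
NONMMUG002771: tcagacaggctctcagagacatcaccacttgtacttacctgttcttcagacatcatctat

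The Mir3552 probe read 3.27, 4.38 and 4.71 on the db/db-vehicle arrays and 3.81, 5.19 and 5.18 on the db/db-DMDD arrays. Db/db-DMDD 1 lay below db/db-vehicle 2 and 3, so the groups overlapped, and the difference of 0.61 ± 0.50 (SE, n = 3 per group) was within the spread of the arrays. NONMMUG046368, the probe with the most predicted trans genes, read 3.97, 3.73 and 4.58 against 3.80, 5.13 and 5.07. Its difference was 0.57 ± 0.40, with db/db-DMDD 1 below 2 of the 3 db/db-vehicle arrays. Its spots on db/db-DMDD 3 read 6.46 and 3.61 before normalization, and the second was below both spots of every db/db-vehicle array, so its value there is uncertain. NONMMUG026773, whose predicted trans gene Six4 is a homeobox transcription factor, read 3.24, 4.63 and 4.79 against 3.89, 5.11 and 5.64. This was the largest positive difference among the lncRNA probes, at 0.66 ± 0.56, and its db/db-vehicle arrays alone spanned more than that.

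NONMMUG032990, predicted to act on Ccdc158 and Shroom3, read 4.55, 5.30 and 5.94 in db/db-vehicle and 4.94, 6.28 and 5.91 in db/db-DMDD, a difference of 0.44 ± 0.45. NONMMUG002771, predicted to act on Kctd3, was the dimmest lncRNA probe, with 2.61, 2.57 and 3.73 against 2.68, 3.43 and 3.71. It was well above background on 3 arrays only, and its difference was 0.31 ± 0.39. The remaining probes of this set were lower in db/db-DMDD, and both hold CTTCCC as shown above. NONMMUG007351, next to Col1a1 by prediction, read 7.27, 6.38 and 6.06 against 6.55, 4.90 and 5.51. Its difference of -0.92 ± 0.48 was the most negative of all 120, yet db/db-DMDD 1 lay above db/db-vehicle 2 and 3. NONMMUG015277, predicted for Cntn1, read 6.72, 5.83 and 5.30 against 6.66, 5.06 and 5.18, a difference of -0.32 ± 0.52.

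**Figure D3:**
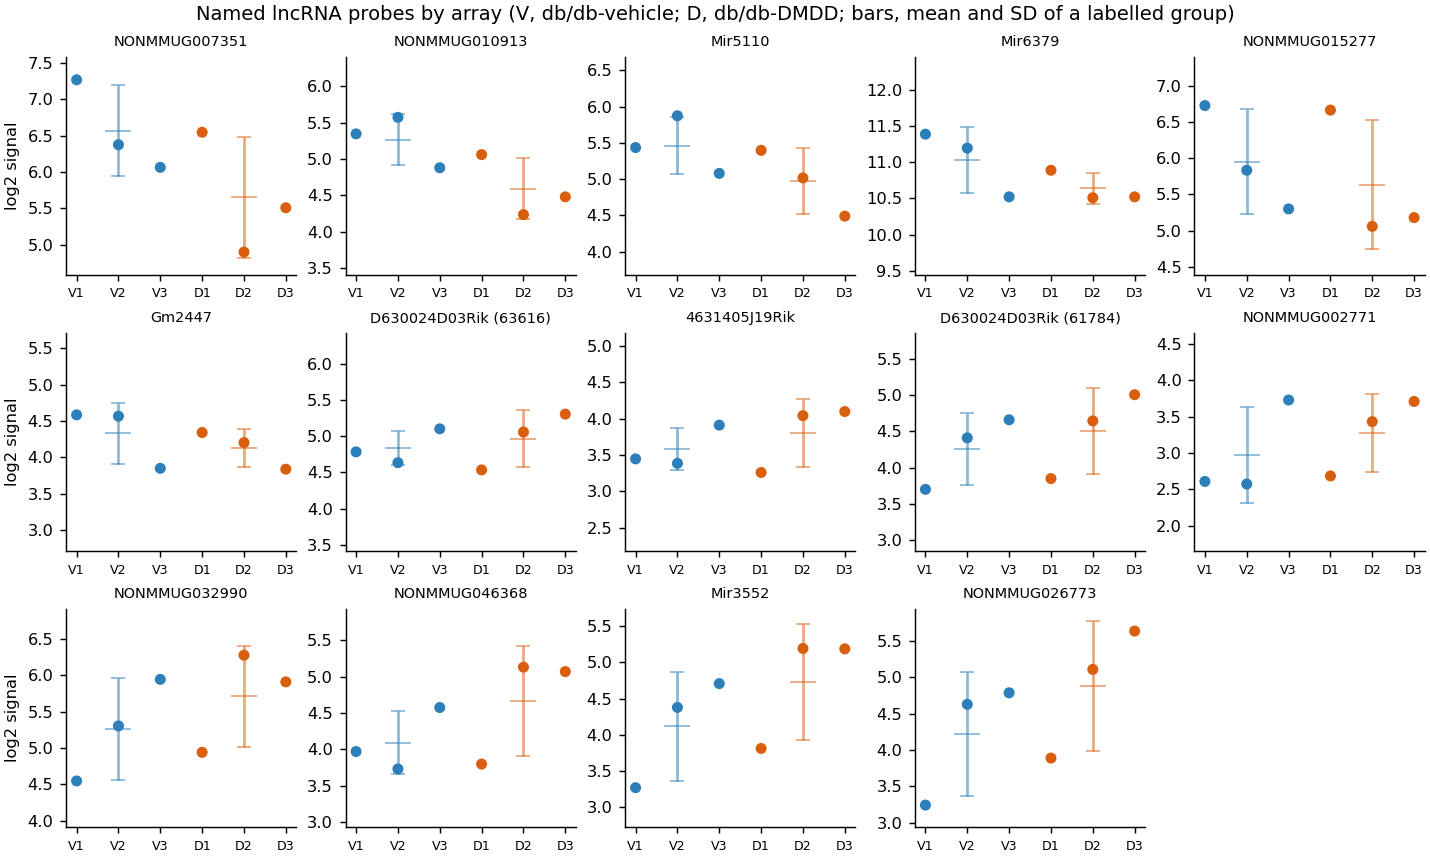
Log2 signal (vertical axis, each panel spanning 3 log2 units) of the lncRNA probes with a predicted target, a gene symbol or values past both thresholds, on each array (horizontal axis; V, db/db-vehicle; D, db/db-DMDD); points are arrays, and bars are the mean and SD of the 3 arrays of a labelled group. In every panel V3 lies with D2 and D3, and D1 with V1 and V2, so that the labelled groups overlap.

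Among the microRNA probes, Mir6379 was the sixth brightest lncRNA probe, with 11.39, 11.19 and 10.52 in db/db-vehicle and 10.89, 10.51 and 10.52 in db/db-DMDD (difference -0.39 ± 0.24). Db/db-vehicle 3 was as low as db/db-DMDD 2 and 3. The Mir5110 probe, which was spotted once per array, read 5.43, 5.87 and 5.08 against 5.40, 5.02 and 4.49 (difference -0.49 ± 0.28). The Mir6379 probe was the only one of the 3 microRNA probes with CTTCCC, and there the run overlaps the first bases of mmu-miR-6379.

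The lncRNA genes listed by symbol had smaller differences between the labelled groups. Gm2447 read 4.59, 4.57 and 3.85 against 4.34, 4.20 and 3.84 (difference -0.21 ± 0.24). 4631405J19Rik read 3.45, 3.39 and 3.91 against 3.26, 4.04 and 4.10 (difference 0.22 ± 0.26). For D630024D03Rik, probe MOUSELNCRNA_61784 read 3.70, 4.41 and 4.66 against 3.85, 4.64 and 5.01 (difference 0.24 ± 0.36), and probe MOUSELNCRNA_63616 read 4.78, 4.64 and 5.10 against 4.54, 5.06 and 5.30 (difference 0.13 ± 0.22). The 2 probes share a run of 10 bases at most and ordered db/db-vehicle 1 and 2 differently, but both placed db/db-DMDD 1 below db/db-vehicle 3, db/db-DMDD 2 and db/db-DMDD 3. Every lncRNA probe splits the arrays into these sides, so only the direction was free to differ.

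The other loci with 2 probes gave the same order of sides at different levels. The split into these sides was fixed in advance, because every lncRNA probe has it, but its direction was not. For NONMMUG000638, one probe read 6.95, 7.19 and 7.64 in db/db-vehicle and 6.93, 7.73 and 7.54 in db/db-DMDD, and the other 7.31, 7.36 and 7.98 against 7.27, 7.73 and 7.81. For NONMMUG028818, one probe read 5.38, 5.51 and 4.89 against 5.78, 4.87 and 4.81, and the other lay between 5.93 on db/db-DMDD 3 and 6.89 on db/db-DMDD 1. Its probes differed in the sign of the labelled difference, at -0.10 ± 0.30 and 0.02 ± 0.27, and both differences were smaller than their standard errors.

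The sequences of 7 lncRNA probes overlap that of another probe of the array, which the study did not list, by a run of at least 40 bases on the same strand. In 6 of the 7 the run joins the end of one probe to the start of the other, so that both read neighbouring bases. For ENSMUSG00000077494 the bases differ on both sides of its run of 43, so its pair are probes of similar but different sequences. The overlap is shown for the loci with known positions, with the shared bases in capitals and the listed probe first.
D630024D03Rik, listed: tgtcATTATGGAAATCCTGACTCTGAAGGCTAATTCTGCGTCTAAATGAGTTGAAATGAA
D630024D03Rik, unlisted: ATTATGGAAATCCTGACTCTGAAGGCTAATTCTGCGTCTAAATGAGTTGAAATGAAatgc
4631405J19Rik, listed: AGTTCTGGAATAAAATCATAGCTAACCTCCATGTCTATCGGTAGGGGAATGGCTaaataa
4631405J19Rik, unlisted: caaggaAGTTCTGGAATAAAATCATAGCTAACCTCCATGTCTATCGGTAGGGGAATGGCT
Gm2447, listed: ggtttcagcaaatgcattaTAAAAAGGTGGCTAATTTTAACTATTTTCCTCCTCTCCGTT
Gm2447, unlisted: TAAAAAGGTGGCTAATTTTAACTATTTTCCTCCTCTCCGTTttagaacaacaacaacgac
The unlisted D630024D03Rik probe, which shares 56 bases, read 3.59, 4.41 and 4.69 in db/db-vehicle and 3.55, 4.48 and 4.88 in db/db-DMDD, within 0.30 of the listed probe on every array. Its labelled difference was 0.07 ± 0.41, against 0.24 ± 0.36 for the listed probe. The unlisted 4631405J19Rik probe, with 54 shared bases, read 3.40, 3.97 and 4.26 against 3.37, 4.32 and 4.30, and its difference was 0.12 ± 0.32. The unlisted Gm2447 probe, with 41 shared bases, was brighter than the listed one, at 5.88, 5.75 and 5.32 against 5.47, 5.50 and 5.58, and its difference was -0.13 ± 0.16.

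Over the 7 pairs, the unlisted probe placed db/db-vehicle 3 with db/db-DMDD 2 and 3, in the direction of the listed probe, in 4 (D630024D03Rik, 4631405J19Rik, NONMMUG027331 and the unnamed probe MOUSELNCRNA_85203). In Gm2447, NONMMUG019020 and ENSMUSG00000077494 the order of the arrays was different. For NONMMUG019020, with 48 shared bases, the listed probe read 3.74, 3.67 and 4.27 in db/db-vehicle and 3.71, 4.23 and 4.15 in db/db-DMDD, whereas the unlisted probe was highest on db/db-vehicle 1, at 4.10, and read 3.65 on db/db-vehicle 3. The sign of the labelled difference was shared in 7 of 7 pairs. At a minimum run of 25 bases, 11 lncRNA probes had at least 1 such unlisted probe, and for 3 of them (ENSMUSG00000077494, ENSMUSG00000077659 and ENSMUSG00000077682) there were 8, 9 and 20, so that these may share signal with near copies elsewhere and their values are uncertain.

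**Figure D4:**
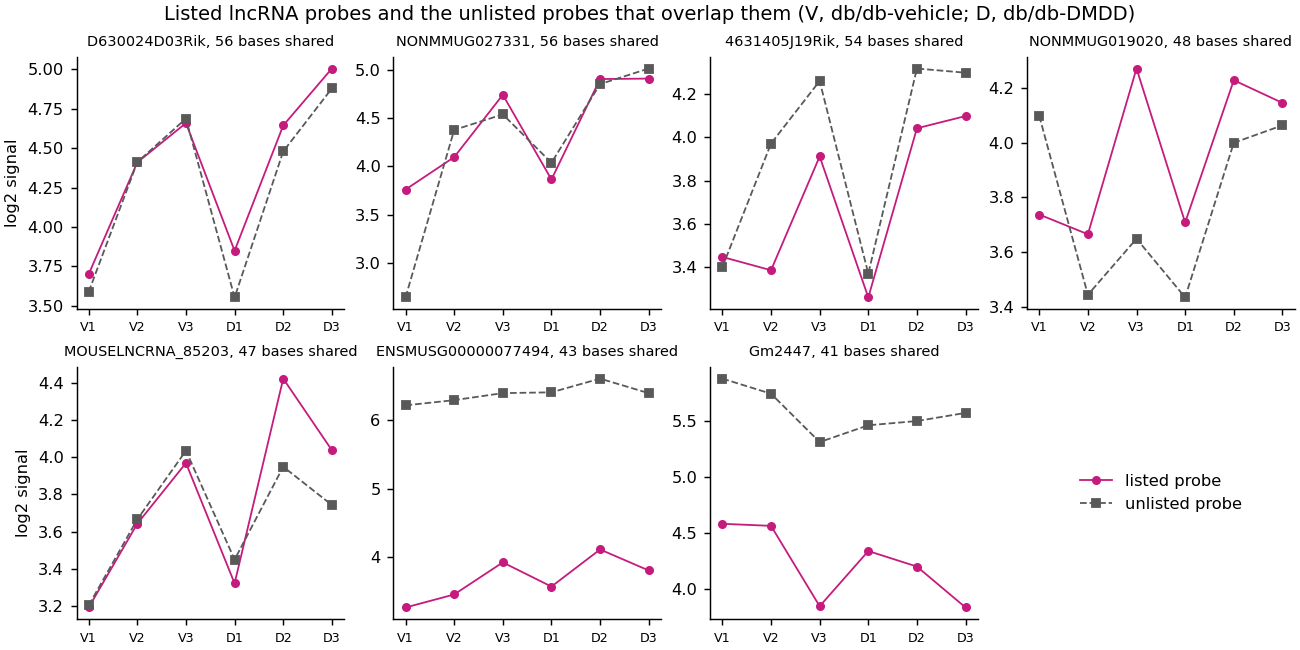
Log2 signal (vertical axis) on each array (horizontal axis; V, db/db-vehicle; D, db/db-DMDD) of 7 listed lncRNA probes (circles) and the unlisted probe that shares 41 to 56 bases with each (squares); lines join the arrays of a probe. The probes of D630024D03Rik lie within 0.30 of each other on every array, and in Gm2447, NONMMUG019020 and ENSMUSG00000077494 the unlisted probe orders the arrays differently.

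Most lncRNA probes had 2 spots per array, which gives the technical error within an array. In the 106 lncRNA probes with 2 spots, the spots differed by a median of 0.18 on the log2 scale, against 0.12 over all tested probes and 0.16 over the tested probes between the quartiles of the lncRNA levels. Read spot by spot before normalization, both spots of 53 probes kept the arrangement of the arrays, 1 spot did so in 49, and neither did in 4. Every lncRNA probe has the arrangement once its spots are averaged, which largely fixes these counts in advance. The same counts were not made over all tested probes. The median gap between the sides, taken from normalized and averaged values, was 0.28 on the log2 scale.

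Under the labels as given, the differences between db/db-DMDD and db/db-vehicle were small. They ran from -0.92 to 0.66 with a median of -0.02, and 59 probes were higher and 61 lower in db/db-DMDD. The median absolute difference was 0.22, against a median SD within the labelled groups of 0.39, and the difference exceeded the probe's own SD within the groups in 21 of 120 probes. Over all tested probes the median absolute difference was 0.10 and the SD 0.16, and the difference exceeded the probe's own SD in 18565 of 67732. By the study's thresholds, an unadjusted p under 0.05 and an absolute log2 difference of at least 0.5, 1 of the 120 lncRNA probes passed in limma, while 0.918% of the tested probes did (622 of 67732). None of the 120 had an adjusted p under 0.05, and 2 had an unadjusted p under 0.05. Over all 67732 tested probes, 1 had an adjusted p under 0.05 and 2097 an unadjusted p under 0.05. The study describes its list as chosen on this contrast at these thresholds. The labels as given did not reproduce that choice, because the labelled groups overlapped in all 120 lncRNA probes and 1 passed. Whether other labels were used for the choice was not tested. The list was chosen on these same arrays, so the count is no independent evidence about DMDD.

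The probe past both thresholds was NONMMUG010913, whose sequence is shown because the count rests on it. It is 1 of the 9 probes with TGTCTTCC, in capitals, and does not hold CTTCCC.
NONMMUG010913: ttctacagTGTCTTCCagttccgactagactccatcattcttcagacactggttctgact
It read 5.35, 5.57 and 4.88 in db/db-vehicle and 5.06, 4.23 and 4.48 in db/db-DMDD, so that db/db-DMDD 1 lay above db/db-vehicle 3, and its difference was -0.68 ± 0.26 (SE, n = 3 per group). Its spots lay far apart, with a median distance of 1.16 within an array. Before normalization, the first spot read 4.63, 5.35 and 4.17 against 4.45, 3.42 and 4.82, and the second 5.86, 6.01 and 5.93 against 5.87, 4.51 and 4.05. Besides the probes with predicted targets, the largest differences were those of the unnamed probe MOUSELNCRNA_36030 (-0.80 ± 0.43), NONMMUG028649 (-0.62 ± 0.27) and ENSMUSG00000079011 (-0.61 ± 0.49) among the probes lower in db/db-DMDD, and of NONMMUG033192 (0.48 ± 0.25) among the higher ones.

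The count of lncRNA probes past both thresholds depended on 2 arrays. Without db/db-vehicle 3 it was 16 of 120 (0.974% of all tested probes), without db/db-DMDD 1 it was 26 (3.17%), and without both it was 84 (2.61%), of which 36 were higher and 48 lower in db/db-DMDD. Leaving out any other array gave 0, against 0.775% to 2.83% of all tested probes. With the replicate number as a block it was 9 (1.14%). The median absolute difference was 0.61 without both arrays, and in that comparison, which leaves 2 arrays per group, the lowest adjusted p of a lncRNA probe in limma with Benjamini-Hochberg adjustment was 0.668. The list was chosen on these same arrays, so these counts are no independent evidence about DMDD. How the list arose was not tested.

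**Figure D5:**
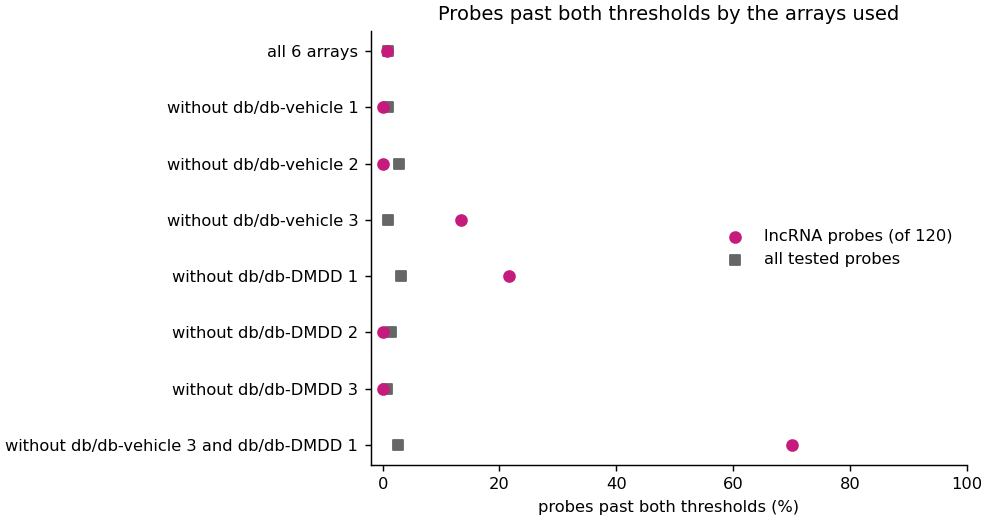
Share of probes past both thresholds (horizontal axis, percent) by the arrays used (vertical axis), for the 120 lncRNA probes (circles) and all 67732 tested probes (squares). The lncRNA share is high only where db/db-vehicle 3, db/db-DMDD 1 or both are left out, reaching 84 of 120 probes.

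Directions also changed when slide entered the fit. With slide as a fixed block, which compares db/db-DMDD 1 with the 3 db/db-vehicle arrays of slide 1, 28 of the 120 lncRNA probes kept the sign of their difference, 45 were higher and 75 lower in db/db-DMDD, and 2 passed both thresholds (1.7% of all tested probes). Slide 2 held db/db-DMDD arrays alone and gives no comparison of its own. In all 120 probes db/db-DMDD 1 lay on the side of db/db-vehicle 1 and 2, opposite db/db-vehicle 3. Comparing db/db-DMDD 1 with the db/db-vehicle arrays therefore tends to reverse the signs, and an effect of slide was not tested. After scaling to the 75th percentile instead of quantile normalization, 47 were higher and 73 lower, while the median difference of all tested probes moved to -0.03.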

How the data were processed

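Each hippocampal RNA was hybridised to 1 one-colour array. The authors deposited the scanner intensities of every spot, made with Agilent Feature Extraction (12.0.3.1 per the file headers, 10.7 per the labels), in which the processed intensity is background-subtracted, and a table of log2 values that the authors normalized by the quantile algorithm. From the processed intensities, control and outlier spots were removed, log2 values were quantile-normalized, and spots of a probe were averaged (limma 3.58.1, R 4.3.3). The 67732 probes with values on all 6 arrays and well above background on at least 3 were fitted by lmFit and eBayes with Benjamini-Hochberg adjustment. Groups followed the labels. Where nothing states separate litters or cages, p-values measure the spread between these mice. The probe list and predicted targets came from the study's supplementary tables, without their fold changes and p-values. The members, lists and alternatives were chosen with earlier results of these data known; runs of bases were chosen after seeing the values.

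Named were probes with a predicted target, a gene symbol, 2 probes at a locus, the 5 largest differences each way, values past both thresholds, the 3 brightest and up to 10 with an unlisted probe sharing at least 25 bases; the probe in a promoter window was added after seeing the data. Probe sequences came from the array files, and hairpins, mature microRNAs and promoter windows from RefSeq (GRCm38.p6), in which the 6 different gene symbols matched and no Ensembl identifier could be matched. Shared runs were searched on both strands. The fit and the search were tested on simulated data. The number of arrays limits the precision. Python 3.11.15, numpy 2.4.6 and pandas 2.3.3 were used.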

Additional observations from a re-analysis of the deposited data

How the results depend on the processing

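The side of the arrays db/db-vehicle 3 and db/db-DMDD 1 held in 116 to 120 of 120 lncRNA probes when values were changed. The changes were 75th percentile scaling, normexp background correction, the authors' normalized values and outlier spots kept. No share over all tested probes accompanies these counts. The filter settings, no filter on dim probes and well above background on all 6 arrays, left each probe's values unchanged. Their counts, 120 of 120 and 108 of 108 probes, were therefore fixed in advance and test nothing. After normexp with an offset of 50, the median level of the lncRNA probes was 6.48. Their median absolute difference was then 0.07, against 0.22 without it, so the sizes of the differences depend on the background correction. The count past both thresholds, 1 with all arrays, was 5 after 75th percentile scaling (1.37% of all tested probes), 0 after normexp (0.031%), 2 with an intensity trend and robust variances (0.765%), 0 with equal variances and without limma (0.354%), 2 with slide as a fixed block (1.7%), 0 with slide as a random block (0.647%) and 9 with the replicate block (1.14%), and ranged from 0 to 26 when each array was left out. Without db/db-vehicle 3 and db/db-DMDD 1 it was 84 and the median absolute difference was 0.61. The labelled groups then did not overlap in 120 of 120 probes, which the arrangement of the arrays fixes, and in 39.4% of all tested probes. Leaving out each array gave 0 to 57 lncRNA probes without overlap, against 11.4% to 30.8% of all tested probes, and a median absolute difference of 0.11 to 0.42. Over all tested probes the count of 622 became 21 after normexp, 1440 with no filter on dim probes, 318 with probes well above background on all 6 arrays, 240 with equal variances and without limma, 1154 with slide as a fixed block and 1768 without both arrays, and ranged from 525 to 2145 when each array was left out. The causes were not tested.

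For arrays with the same replicate number, the deviations from the group means correlated at -0.04, -0.25 and -0.19 over all tested probes. These correlations cannot show whether the numbers pair the mice, which was not tested. With the replicate block, 770 of all tested probes (1.14%) and 9 of the 120 lncRNA probes passed both thresholds. NONMMUG010913 kept its sign under every alternative but missed at least 1 threshold after normexp, with equal variances and without limma, with slide as a fixed or random block, and without db/db-vehicle 1, db/db-vehicle 2, db/db-DMDD 2 or db/db-DMDD 3. Of 32 named probes, 22 changed sign with slide as a fixed block, and 1 did without db/db-vehicle 3 and db/db-DMDD 1. Overlapping unlisted probes were found for 16 lncRNA probes at a minimum run of 20 bases and for 7 at 40 bases, against 11 at 25 bases. The share of unlisted probes with CTTCCC that were lower on db/db-vehicle 3 and db/db-DMDD 2 and 3 was 9.51% to 10.8% over the scalings, tried after seeing the data, against 4.19% to 4.88% without the run. Dim signal limits the lncRNA probes: at a median level of 4.92, their spots differed by 0.18.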
